A study of Mus musculus with 145 samples.

Results

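Cortical thymic epithelial cells (group Ep.8wk.CEChi.Th, here CEChi) were set against medullary thymic epithelial cells (group Ep.8wk.MEChi.Th, here MEChi), 2 arrays against 2, chosen by sample title out of 145 arrays in 65 groups. Both groups were sorted by FACS from thymuses of male C57BL/6 mice at 8 weeks of age, and neither label names a transgene, mutation or treatment. The series profiles sorted mouse immune and stromal cells on Affymetrix arrays, and its purpose is stated only as part of the Immunological Genome Project. Used beside them were the other sorted fractions of the same age and strain, Ep.8wk.CEC.Sca1+.Th (here CEC.Sca1+) and Ep.8wk.MEClo.Th (here MEClo), 2 arrays each. The group T.DP.Th.v2 gave 3 arrays of CD4+CD8+CD69- thymocytes from male mice of 6 weeks, with no strain in their labels. Medullary groups Ep.5wk.MEChi.Th, Ep.5wk.MEClo.Th and Ep.5wk.MEC.Sca1+.Th, from mice of 5 weeks, entered the statistical fit and its filter. The labels of all these epithelial arrays carry one and the same set of sort markers (EpCAM, Ly51, MHC class II and Sca1 positive, CD45 and propidium iodide negative), so the cortical and medullary names rest on the titles and on the marker genes below. The labels do not say that the arrays of a group came from separate mice, so the p-values measure the spread between these arrays, which may be technical.

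The thymus trains T cells in a fixed sequence of places. In the cortex, epithelial cells attract precursors, hold them through Notch and cytokine signals, and present a set of self peptides, cut by a proteasome subunit of their own and by particular lysosomal proteases, that positively selects CD4+CD8+ thymocytes. In the medulla, epithelial cells that express Aire transcribe genes otherwise restricted to other organs and display them, directly or through dendritic cells, so that self-reactive thymocytes are deleted or become regulatory T cells.

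The start regions of a pair of cortical genes and a pair of medullary genes are shown. Psmb11 and Cxcl12 had the largest fold changes towards cortex among genes not marked as possible thymocyte RNA. Aire and Fezf2 were not among the largest falls and were chosen as the nuclear factors best known for driving tissue-restricted antigens. Each sequence is the 250 bases before the RefSeq gene start (build GRCm38.p6), read 5′ to 3′ on the gene's strand. Capitals mark GACGC or its reverse complement GCGTC, a core letter sequence known for the mouse factor Foxn1, which directs thymic epithelial development; the spellings can overlap each other but did not in these sequences.
Psmb11, chr14:54625060-54625309, + strand: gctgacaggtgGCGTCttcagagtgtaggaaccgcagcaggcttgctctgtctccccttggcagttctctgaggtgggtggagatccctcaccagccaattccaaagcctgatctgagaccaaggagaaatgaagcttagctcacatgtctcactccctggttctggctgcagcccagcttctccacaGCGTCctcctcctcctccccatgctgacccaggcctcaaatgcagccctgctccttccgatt
Cxcl12, chr6:117168285-117168534, + strand: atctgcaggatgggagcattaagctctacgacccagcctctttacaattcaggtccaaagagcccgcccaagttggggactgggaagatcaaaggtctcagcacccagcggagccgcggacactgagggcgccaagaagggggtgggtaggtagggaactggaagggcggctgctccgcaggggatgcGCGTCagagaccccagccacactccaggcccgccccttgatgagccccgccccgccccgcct
Aire, chr10:78043611-78043860, - strand: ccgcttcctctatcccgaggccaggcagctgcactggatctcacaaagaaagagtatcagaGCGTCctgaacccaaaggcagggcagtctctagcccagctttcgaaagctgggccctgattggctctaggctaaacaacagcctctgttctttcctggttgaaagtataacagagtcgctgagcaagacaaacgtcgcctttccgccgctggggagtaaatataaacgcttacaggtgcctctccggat
Fezf2, chr14:12345866-12346115, - strand: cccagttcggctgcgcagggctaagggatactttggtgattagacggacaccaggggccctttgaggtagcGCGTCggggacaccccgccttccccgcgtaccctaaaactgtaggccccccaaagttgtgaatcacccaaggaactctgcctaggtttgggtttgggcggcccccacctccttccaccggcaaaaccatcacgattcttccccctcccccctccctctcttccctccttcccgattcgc
The letters occurred at positions -239 and -62 from the start of Psmb11 and at -62 in Cxcl12, and also at -189 in Aire and -179 in Fezf2. Start regions read but not printed were that of Enpep, with the letters at -8, and those of Ctsl, Ly75, Foxn1, Spib and Cd80, without them. They stood in 22.6% of all 32851 RefSeq start regions of this length, in 34.7% of the 1288 that belong to genes at least 2-fold higher in CEChi, in 22.1% of the 1773 of genes at least 2-fold lower, and in 35.9% of the 12331 of all tested genes. The letters are a description of the sequence, and binding was not measured. Start regions were found for 955 of the 1243 higher genes and for 1420 of the 1845 lower genes.

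The marker genes went with the titles. Psmb11, which encodes the thymoproteasome subunit beta5t of cortical epithelium, had an intensity of 2888 and 4255 in the CEChi arrays, against 121 and 102 in MEChi. Aire, the medullary regulator of tissue-restricted genes, had 141 and 133 in CEChi, against 3825 and 4339 in MEChi. The arrays of the 2 groups did not overlap for either gene, and thymocytes averaged 88.5 for Psmb11 and 124 for Aire. Enpep encodes the sort antigen Ly51 and had 3509 and 2699.5 in CEChi, against 169 and 198 in MEChi, although the label names Ly51 for both. Epcam, the epithelial adhesion molecule used in the sort, had 1350.2 and 1206 in CEChi, against 2439 and 3026 in MEChi, so CEChi was lower (-1.09 ± 0.15 on the log2 scale, limma adjusted p = 7.68e-05). The MHC class II genes H2-Aa, H2-Ab1 and H2-Eb1 lay between 6178 and 11855 over the 4 arrays and did not pass the test. Among all 65 groups, the mean of Psmb11 was highest in CEChi at 3571, and the next group, MEClo, had 345. For Aire, MEChi ranked 4th, behind other groups of medullary cells, all from mice of 5 weeks. These were MEChi.GFP+.Adult (4421), Ep.5wk.MEChi.Th (4298) and MEChi.GFP+.Adult.KO (4107), the last titled as a knockout.

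Ptprc encodes CD45, which the sort excluded, and it had 491 and 446 in CEChi, against 96.1 and 81.4 in MEChi and a mean of 5373 in thymocytes. Of 24 genes listed as markers of CD4+CD8+ thymocytes and present on the array, 20 were tested and 19 were higher in CEChi. Their summed intensity was 14424 and 12814 in CEChi, 3171 and 3383 in MEChi and between 97664 and 104790 in thymocytes. Fewer cells of a type and less RNA per cell cannot be told apart in such bulk samples. Each probe set at least 8-fold brighter in T.DP.Th.v2 than in MEChi was marked as possible thymocyte RNA, and the part of thymocyte RNA in any single result was not tested.

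A probe set is the unit of the array, and intensities are on the linear scale that RMA, the summarisation used by the authors, returns. A probe set was tested when a group mean reached 138, the median intensity of the arrays fitted, and called at a limma adjusted p under 0.05. Changes are log2 fold changes of CEChi over MEChi ± SE, with 2 arrays a group. Of 15068 probe sets tested, 7223 were called (47.9%), 3763 higher (25.0%) and 3460 lower (23.0%) in CEChi, and 1445 (9.59%) were called and at least 2-fold higher, against 2137 (14.2%) at least 2-fold lower. The arrays of the 2 groups did not overlap for 77.6% of the tested probe sets. Because nearly every second probe set was called, the counts for gene groups below are to be read against these shares. A list member that reached 138 only through the group where it is high had to differ, so the list counts describe the members and are not support. Across all probe sets, arrays of a group correlated at 0.992 (CEChi) and 0.995 (MEChi), and arrays of different groups between 0.877 and 0.886. A low group below 138 lies in the dim range of these arrays, where RMA compresses differences.

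Genes of the cortical identity list were higher in CEChi almost throughout. Of 21 tested members 17 were higher and none was lower, and the median change was 2.22, against 0.07 over all tested probe sets. None of the 21 was marked as possible thymocyte RNA, and each had a lower mean in thymocytes than in CEChi. Cxcl12, the chemokine that draws Cxcr4-bearing precursors and holds them in the cortex, had 1949.7 and 2786 in CEChi, against 68.0 and 64.0 in MEChi, a change of 5.14 ± 0.19 (limma adjusted p = 1.25e-08). Psmb11 changed by 4.98 ± 0.22 (adjusted p = 2.24e-08). Prss16, the thymus-specific serine protease needed for a part of CD4 T cell selection, had 12265 and 11707 in CEChi, against 1078 and 753 in MEChi (3.73 ± 0.32, adjusted p = 2.14e-06). In these genes the lower CEChi array was above the higher MEChi array by a wide margin.

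Genes of the cortical list that encode surface proteins and cytokines moved the same way. Ly75, which encodes the endocytic receptor DEC-205, had 3414 and 3819 in CEChi, against 512 and 421 in MEChi (2.96 ± 0.15). Cd83, a membrane protein that keeps MHC class II on the cortical cell surface and is needed for CD4 selection, had 2213 and 1978 in CEChi, against 233 and 246 in MEChi (3.12 ± 0.22). Fgfr2, the receptor for fibroblast growth factors that feed thymic epithelium, changed by 3.22 ± 0.24, and Ackr4, a scavenging receptor for Ccl19, Ccl21 and Ccl25, by 3.19 ± 0.23. Kitl, the ligand of Kit on early precursors, and Il7, their survival cytokine, changed by 2.22 ± 0.22 and 2.19 ± 0.21. Limma adjusted p-values of these 6 genes were at or below 5.88e-06. Not all were low in both medullary fractions. In MEClo, Il7 had 1597 and 1401, against 1520 and 1533 in CEChi, and Fgfr2 had 1009 and 1120, against 1213 and 1390 in CEChi. Ly75, Cd83, Ackr4 and Kitl had lower means in MEClo than in CEChi, at 375, 89.6, 209 and 133.

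The 4 tested members that were not called were Foxn1, Tbata, Psmb10 and Krt8. Foxn1, the factor on which both kinds of thymic epithelium depend, had 3524 and 3577 in CEChi, against 2595 and 3161 in MEChi, a change of 0.31 ± 0.25 (adjusted p = 0.327). Krt8, a simple keratin often used to stain cortex, had 8608 and 9434 in CEChi, against 7507 and 7110.1 in MEChi, whereas its partner Krt18 was higher in CEChi (1.30 ± 0.16, adjusted p = 5.14e-05). Of the other called members, Ccl25, a chemokine for Ccr9-bearing precursors, lost its call without any 1 of the 4 arrays (adjusted p from 0.0930 to 0.158). Dll4, the Notch ligand that commits precursors to the T lineage, had 751 and 934 in CEChi, against 544 and 477 in MEChi (0.72 ± 0.21), and it lost its call without CEChi replicate 2 or MEChi replicate 2 (adjusted p = 0.107 and 0.0952).

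**Figure D1:**
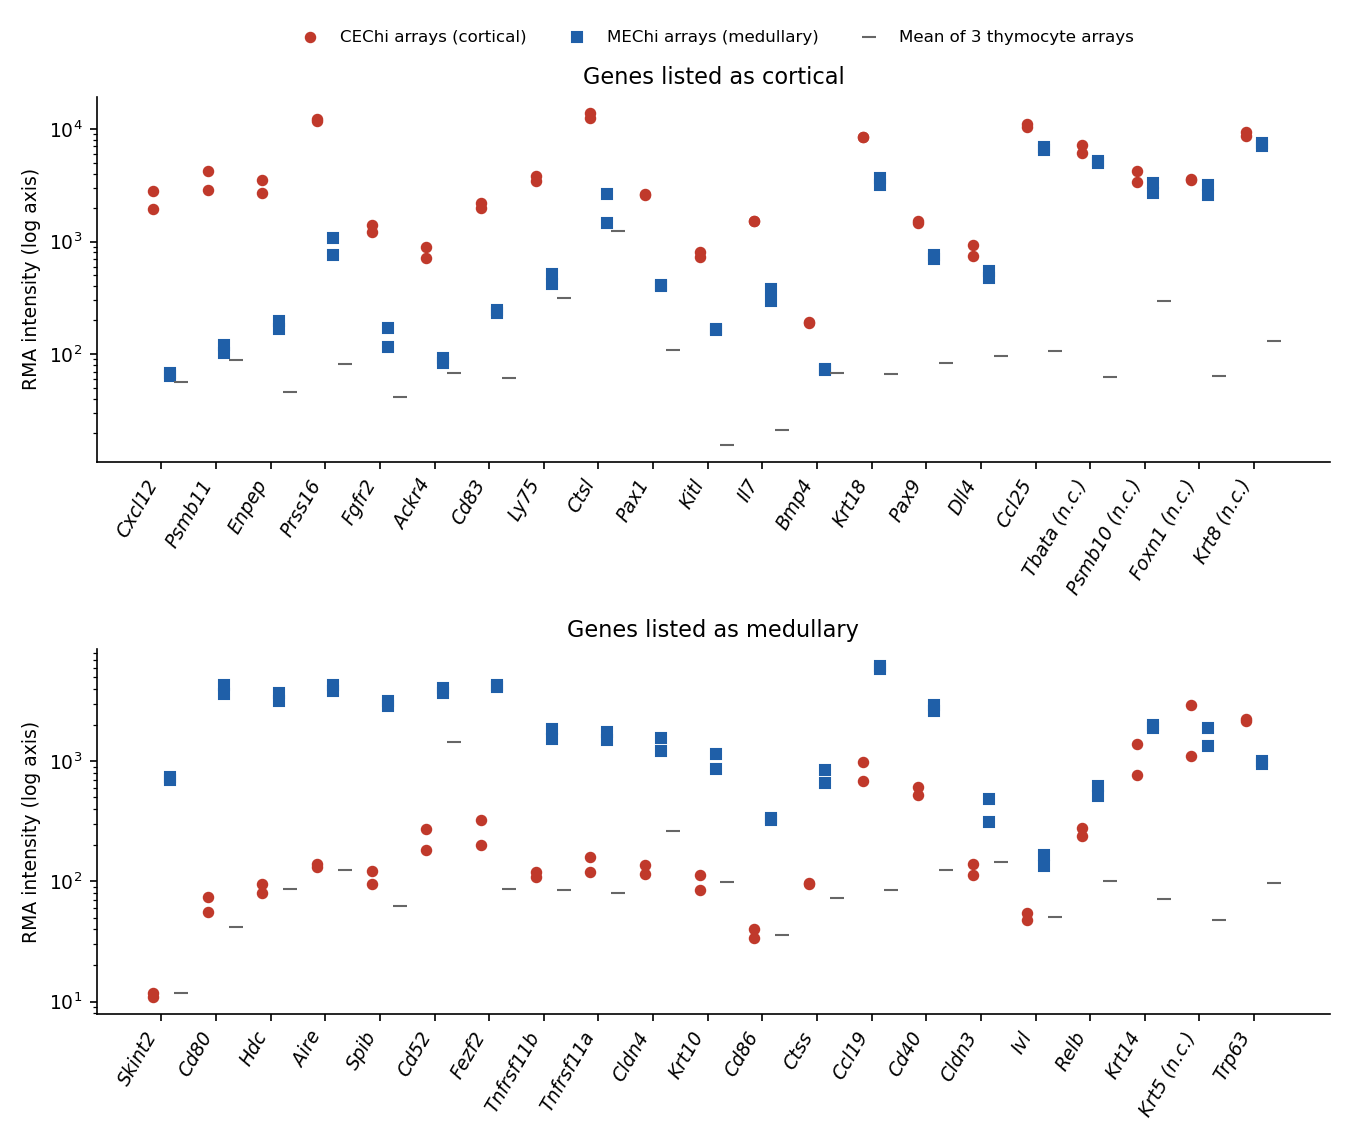
RMA intensity (log axis) of each tested gene of the cortical list (top) and the medullary list (bottom), with circles for the 2 CEChi arrays, squares for the 2 MEChi arrays and a dash for the mean of 3 thymocyte arrays; n.c. means not called. CEChi lies above MEChi for all 17 called cortical genes and below it for 19 of 21 medullary genes, with Trp63 higher and Krt5 not called.

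The medullary identity list was the mirror image with one exception. Of 21 tested members 19 were lower in CEChi, 1 was higher and 1 was not called, with a median change of -3.35. Aire changed by -4.90 ± 0.34 (limma adjusted p = 3.67e-07). Fezf2, which drives tissue-restricted genes partly apart from Aire, had 199 and 321 in CEChi, against 4349.6 and 4165 in MEChi (-4.07 ± 0.21). Spib, an Ets-family factor of medullary epithelium, had 95.1 and 122 in CEChi, against 3163 and 2858 in MEChi (-4.80 ± 0.17). The costimulatory ligand gene Cd80 had 56.1 and 74.4 in CEChi, against 3639 and 4300.1 in MEChi (-5.94 ± 0.22), and its relative Cd86 changed by -3.17 ± 0.16. Tnfrsf11a, the receptor RANK that induces Aire-expressing cells, changed by -3.56 ± 0.20, and Tnfrsf11b, its soluble decoy osteoprotegerin, by -3.88 ± 0.21. The exception was Trp63, the p63 factor of stratified epithelial progenitors, with 2184 and 2253 in CEChi, against 957 and 1008 in MEChi (1.17 ± 0.15, adjusted p = 5.28e-05). Krt5, a basal keratin used to stain medulla, had 1106 and 2965 in CEChi, against 1904 and 1339.8 in MEChi, so the CEChi arrays alone spanned the MEChi values. Krt14, its partner, was lower at -0.92 ± 0.34 and lost its call without CEChi replicate 1 or either MEChi array (adjusted p from 0.110 to 0.308).

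The largest rises outside possible thymocyte RNA included genes that the cortical list does not hold. Inmt, which methylates indole amines, had 2186 and 2447 in CEChi, against 61.7 and 91.1 in MEChi (4.95 ± 0.26, adjusted p = 6.17e-08). Scn1a, a neuronal sodium channel subunit, had 399.5 and 443 in CEChi, against 16.5 and 16.7 in MEChi (4.66 ± 0.17). Diras2, a small Ras-like GTPase, changed by 4.54 ± 0.19 and Gpx8, a peroxidase of the endoplasmic reticulum, by 4.34 ± 0.22. Igfbp7, a secreted binder of insulin-like growth factors, had 6353 and 5888 in CEChi, against 328 and 309 in MEChi (4.26 ± 0.14). Lifr, the receptor subunit for leukemia inhibitory factor, had 7133 and 6184 in CEChi, against 549.8 and 319.6 in MEChi (3.99 ± 0.21). Enpep, the olfactomedin-like Olfml1, the guanylate cyclase subunit Gucy1a2 and the collagen prolyl hydroxylase subunit P4ha3 filled the remaining places, between 4.00 and 4.07. All of these had a thymocyte mean of 90.9 or lower. The summed intensity of 11 fibroblast markers was 3483 and 3758 in CEChi, against 2345 and 2599 in MEChi, and 8248 and 10350 in CEC.Sca1+, against 2636 and 2804 in MEClo. Dcn, the matrix proteoglycan decorin, made up most of it in CEChi, with 2503 and 2726 in CEChi, against 918 and 1066 in MEChi, while Col1a1, Col1a2 and Col3a1 lay at 245 or below in these arrays. Of 8 tested fibroblast markers 2 were higher in CEChi, Dcn and Dpt, and 3 were lower, Pdgfrb (-2.48 ± 0.18), Mfap5 (-1.76 ± 0.14) and Col1a1 (-0.49 ± 0.13), with a median of -0.01. Over the series, 3 groups of lymph node cells sorted as gp38+ CD140a+ were above CEChi for Cxcl12. These were FRC.Cad11.WT.v2 (4886), FRC.SLN.CFA.d6.v2 (4656, titled for day 6 of the adjuvant CFA) and FRC.SLN.v2 (4370). The part of fibroblast RNA in Cxcl12, Igfbp7 and the other rises was not tested.

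The largest falls included genes known from the secretions and barriers of other organs. Mucl2, a mucin-like secretory gene, had 20.6 and 20.2 in CEChi, against 3434 and 3309.8 in MEChi (-7.37 ± 0.55, adjusted p = 7.18e-07). Hamp, the liver hormone hepcidin, had 34.8 and 25.3 in CEChi, against 2954 and 3329 in MEChi (-6.72 ± 0.37). Scgb1a1, a secretoglobin of airway club cells, had 12.6 and 11.6 in CEChi, against 830.5 and 1406 in MEChi (-6.48 ± 0.33). The CEChi arrays of these genes were all in the dim range. Klk1b8 and Klk1b16, glandular kallikreins, and Skint9 belong to families of close copies, so their probe sets may read relatives as well. Lyz1, the lysozyme of intestinal Paneth cells, had 109.9 and 115 in CEChi, against 7762 and 7696 in MEChi (-6.10 ± 0.44). The diamine oxidase gene Aoc1, the serpin Serpinb12, the embryonic stem cell factor Utf1, the testis lipid-binding protein Fabp9 and the neutrophil antigen Ly6g completed the list, between -6.38 and -6.06.

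A list of 55 genes that are typical of organs other than the thymus was written down as peripheral tissue antigens, of which 52 were on the array. Of the 39 that were bright enough to be tested in any epithelial group, 36 were lower and none was higher in CEChi, and 35 of these were lower at least 2-fold; the median change was -2.82. Among gut genes, Reg3g, an antibacterial lectin, had 78.8 and 170.4 in CEChi, against 6579 and 6338 in MEChi, and Apoa4, a lipoprotein of the intestine, had 147 and 154 in CEChi, against 2785 and 2647 in MEChi. Among endocrine genes, Sst, which encodes somatostatin, had 126 and 131 in CEChi, against 1918 and 2272 in MEChi, and Ppy, pancreatic polypeptide, had 188 and 177 in CEChi, against 1997 and 2452 in MEChi. Ins2, an insulin gene, was dimmer in all arrays, with 69.3 and 63.7 in CEChi, against 283 and 278 in MEChi (-2.08 ± 0.16). Csn2, the milk protein beta-casein, had 56.0 and 53.7 in CEChi, against 3057 and 2427 in MEChi (-5.63 ± 0.31). For each of these genes both MEChi arrays were above both CEChi arrays. The muscle genes Acta1, Ckm and Myl1 were the 3 that were tested and not called. Genes of cornifying keratinocytes were lower in 20 of 22 tested cases, with Krtdap at -4.65 ± 0.28 and Sprr1a at -4.07 ± 0.23, and Dsc2, a desmosomal cadherin, was higher (1.01 ± 0.20).

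**Figure D2:**
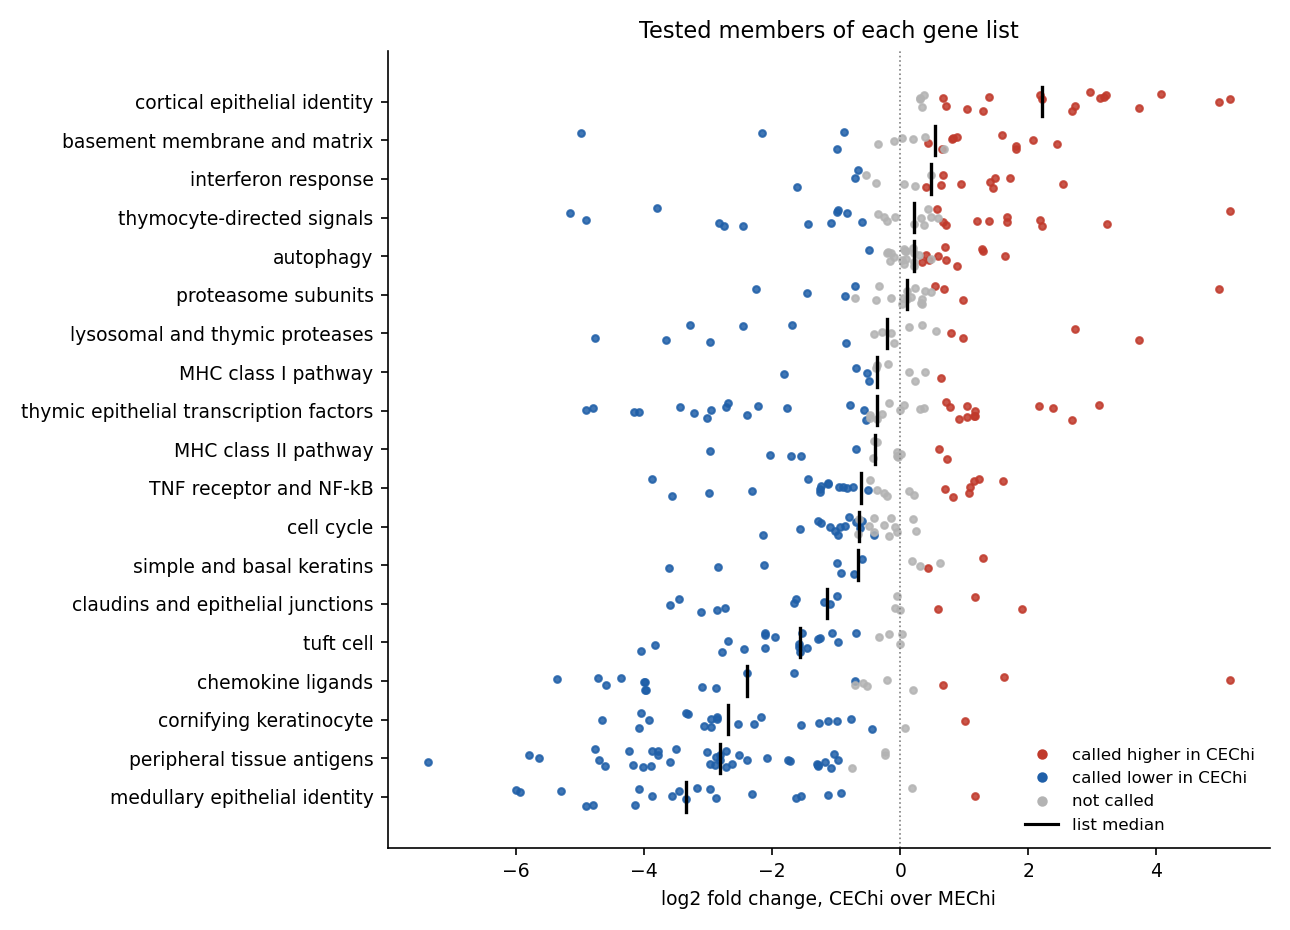
Log2 fold change of CEChi over MEChi for each tested member of 19 gene lists, 1 point per gene coloured by its call, with a bar at the list median. The cortical identity list has the highest median (2.22) and the medullary identity list the lowest (-3.35), while signals, proteases and the proteasome hold members on both sides of 0.

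Proteasome genes lay on both sides of the contrast. Of 23 tested proteasome genes 4 were higher, 4 were lower and 15 were not called, with a median of 0.10. Psmb11 replaces the chymotrypsin-like subunit Psmb5 in cortical cells, and Psmb5 itself had 2102 and 2101 in CEChi, against 2369 and 2284 in MEChi (-0.15 ± 0.16, adjusted p = 0.473). Psmb8, the interferon-inducible alternative to the same subunit, had 251 and 364 in CEChi, against 527 and 459 in MEChi (-0.70 ± 0.18), and lost its call without CEChi replicate 1 or MEChi replicate 1 (adjusted p = 0.0778 and 0.0615). Psmb9, another interferon-inducible subunit, was higher in CEChi, with 1778 and 2472, against 1130 and 994 in MEChi (0.98 ± 0.22). Psme1 and Psme2 form the PA28 activator, and Psme1 had 384 and 419.8 in CEChi, against 2039 and 1775 in MEChi (-2.24 ± 0.14, adjusted p = 1.62e-07), while Psme2 had 1160.5 and 1216 in CEChi, against 3248 and 3287 in MEChi (-1.46 ± 0.16). In MEClo, Psme2 had 1147 and 1385, near CEChi, and Psme1 had 1000.5 and 1016.5. Psmb4 and Psma5, core subunits, were called higher by small amounts (0.68 and 0.55) and each lost the call under 6 alternatives. Psme3, a nuclear activator, was lower (-0.86 ± 0.21) and lost the call without MEChi replicate 2 (adjusted p = 0.0562).

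Lysosomal proteases, which cut peptides for MHC class II, also lay on both sides. Of 18 tested genes 4 were higher and 7 were lower in CEChi. Ctsl, the cathepsin L that cortical cells use to process the invariant chain, had 12519 and 13715 in CEChi, against 2650.4 and 1461 in MEChi (2.74 ± 0.26, adjusted p = 5.51e-06). Ctss, the cathepsin S that does so in other antigen-presenting cells, had 94.3 and 96.4 in CEChi, against 851 and 654 in MEChi (-2.97 ± 0.28, adjusted p = 4.02e-06). Ctsh, an aminopeptidase-like cathepsin, had 51.3 and 58.8 in CEChi, against 1476 and 1526 in MEChi (-4.77 ± 0.39). Ctsz changed by -3.66 ± 0.22 and Ctsc, which activates granule serine proteases, by -3.29 ± 0.22. For each of these cathepsins the CEChi and MEChi arrays did not overlap. Ctsl had 7869 and 9528 in MEClo, against 5042 and 7027 in CEC.Sca1+, which was not called (-0.54 ± 0.26). Ctss had 134 and 196 in MEClo, Ctsz 578 and 625, and Ctsc 1294 and 1324. Markers of dendritic cells and macrophages were also lower in CEChi, as given below, and the part of such cells in the cathepsin falls was not tested. Tpp1 and the protease inhibitor Cstb were higher, by 0.98 ± 0.19 and 0.80 ± 0.16, and the broad proteases Ctsb and Ctsd were not called.

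**Figure D3:**
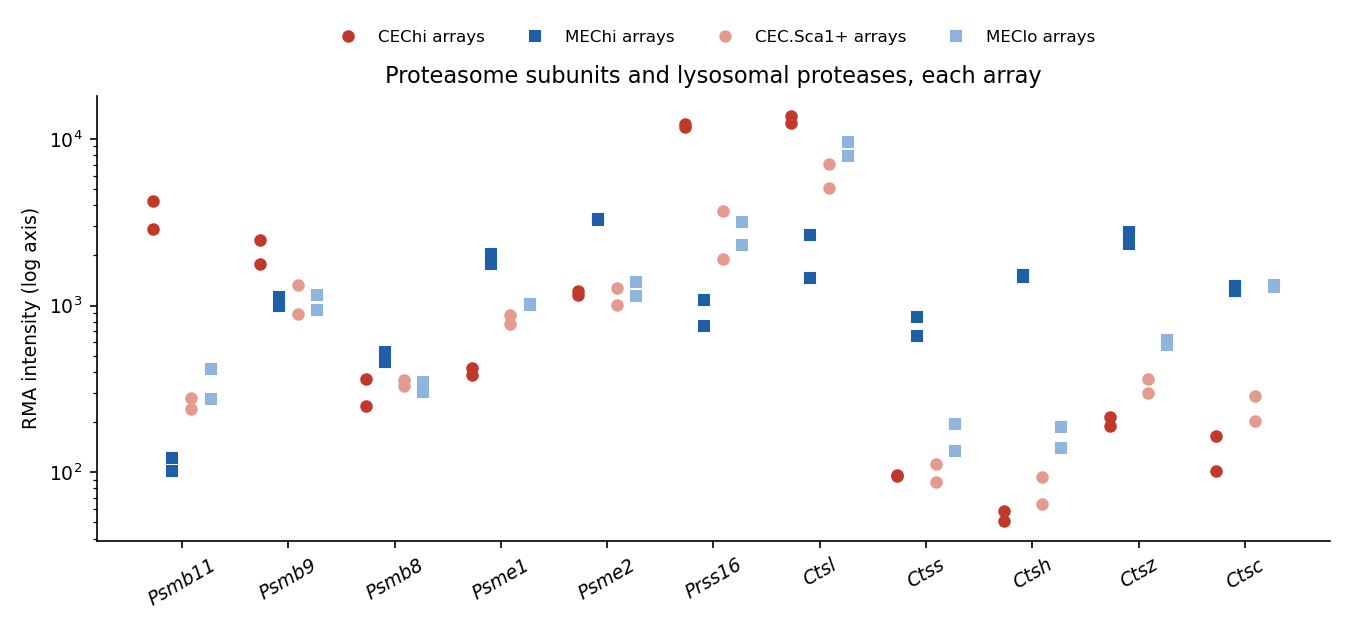
RMA intensity (log axis) in each of 2 CEChi, 2 MEChi, 2 CEC.Sca1+ and 2 MEClo arrays for 5 proteasome genes and 6 lysosomal proteases. Psmb11, Prss16 and Ctsl are brighter in CEChi than in MEChi, and Psme1, Psme2, Ctss, Ctsh, Ctsz and Ctsc are dimmer.

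Of 14 tested genes of the MHC class II pathway 2 were higher and 5 were lower. H2-Ab1 had 11469 and 11540 in CEChi, against 11855 and 11643 in MEChi, which did not pass the test (-0.03 ± 0.13, limma adjusted p = 0.872). MEClo, titled lo, had 10292 and 11390 and CEC.Sca1+ had 9288 and 10700, so this probe set differed little between the sorted fractions. H2-Ob and H2-Oa encode H2-O, an inhibitor of peptide exchange by H2-M, and were lower (-2.96 ± 0.18 and -1.55 ± 0.16), while H2-DMa, a chain of H2-M itself, was higher (0.74 ± 0.15, adjusted p = 0.00198). Ifi30, the lysosomal thiol reductase GILT, was lower (-1.71 ± 0.17), and so was Ciita, the master activator of class II genes (-0.69 ± 0.24, adjusted p = 0.0339). In MEClo, H2-Oa had 1149 and 992, against 1145.5 and 1064 in CEChi, and Ifi30 had 1936 and 2265, against 1669.5 and 1843. H2-Ob had 488 and 541 in MEClo, against 201 and 284 in CEChi. Among 11 tested genes of the class I pathway B2m, Tap1 and Tap2 were not called, and H2-K1 and H2-D1 were not analysed here. Autophagy feeds cytoplasmic proteins into class II loading in thymic epithelium, and 10 of its 28 tested genes were higher and 1 was lower. Only 3 of the 28 were higher at least 2-fold, against 9.59% of all tested probe sets. The median was 0.21, against 0.07 over all tested probe sets. The lower gene was Atg13 (-0.48 ± 0.14). In CEC.Sca1+ over MEClo 1 of these genes was higher and 1 was lower. Gabarapl1, an Atg8 homologue, had 1269 and 1374 in CEChi, against 435 and 419 in MEChi (1.63 ± 0.16), and Lamp2, a lysosomal membrane protein, had 8225 and 8014 in CEChi, against 3318 and 3391 in MEChi (1.28 ± 0.13). Ulk1, the kinase that starts autophagy, and Map1lc3b, an LC3 gene, changed by 1.29 ± 0.16 and 0.88 ± 0.17.

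Chemokine ligands were lower in CEChi in 13 of 21 tested cases and higher in 3, with a median of -2.39. The 3 higher ones were Cxcl12, Ccl25 and Cx3cl1, the last a membrane-bound attractant of myeloid cells. Ccl22, which attracts Ccr4-bearing cells, had 68.9 and 70.0 in CEChi, against 2899 and 2766 in MEChi (-5.35 ± 0.24, adjusted p = 2.56e-08). Ccl17, the other Ccr4 ligand, had 97.4 and 93.4 in CEChi, against 1293 and 1769 in MEChi (-3.99 ± 0.25). Ccl19, a Ccr7 ligand that leads selected thymocytes into the medulla, had 689.9 and 979 in CEChi, against 6251 and 5858 in MEChi (-2.88 ± 0.19). The MEChi mean of Ccl22 was the highest of all 65 groups. Xcl1, a dendritic cell attractant, was dimmer, with 59.9 and 50.2 in CEChi, against 170.2 and 176 in MEChi (-1.66 ± 0.17). Ccl20, a Ccr6 ligand, changed by -4.60 ± 0.19, and Cxcl9, an interferon-induced ligand of Cxcr3, had 556 and 169 in CEChi, against 6025 and 6604 in MEChi.

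Markers of dendritic cells and macrophages moved with these falls. All 6 tested of 17 such markers were lower in CEChi, and their summed intensity over the 17 was 1563 and 1469 in CEChi, against 8147 and 7965 in MEChi. Lyz2, the myeloid lysozyme, was the brightest in MEChi, with 75.1 and 79.2 in CEChi, against 4404 and 4475 in MEChi, and it is a close copy of Lyz1, which its probe set may also read, while the remaining 11, Itgax and Csf1r among them, were too dim to be tested. Of 8 B cell markers on the array 3 of 4 tested were lower in CEChi, with sums of 754 and 752 in CEChi, against 5642 and 5385 in MEChi, of which Spib is also in the medullary list. Cd79a, Ms4a1 and Pax5 were dim in every epithelial group. The part of such cells in the chemokine, Cd80, Cd86, class II, lysosomal protease and Igf1 results was not tested.

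Signals aimed at thymocytes lay on both sides, with 11 of 33 tested genes higher and 12 lower in CEChi. The Notch ligands Jag2, Dll1 and Dll4 were higher and Jag1 was not called, with Jag2 at 1625 and 2484 in CEChi, against 251 and 184 in MEChi (3.23 ± 0.42), and Dll1 at 1.67 ± 0.28. Wnt4 and Bmp4, secreted factors that support Foxn1 in thymic epithelium, changed by 1.67 ± 0.33 and 1.38 ± 0.13. Cd274, the inhibitory ligand PD-L1, was higher (1.20 ± 0.25), and Pdcd1lg2, its relative PD-L2, was lower (-1.44 ± 0.24). Igf1, a growth factor, had 104 and 104 in CEChi, against 3592 and 3828 in MEChi (-5.15 ± 0.27), and Icosl, a costimulatory ligand for regulatory and helper T cells, had 109.9 and 96.5 in CEChi, against 2912 and 3245 in MEChi (-4.90 ± 0.26). Il15, a cytokine for natural killer and innate-like T cells, changed by -0.97 ± 0.14.

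Of 28 tested genes of TNF receptor and NF-kB signalling 7 were higher and 15 were lower. Beside Tnfrsf11a, the receptor gene Cd40 had 521 and 608 in CEChi, against 2634 and 2952 in MEChi (-2.31 ± 0.22). Cd40 had 502 and 595 in MEClo, near CEChi, and 211 and 175 in CEC.Sca1+. Tnfrsf11a had 760 and 963 in MEClo. Relb and Nfkb2 encode the pair of the alternative pathway that medullary development needs and were lower (-1.13 ± 0.24 and -1.44 ± 0.19). Ltbr, the lymphotoxin beta receptor, was on the other side, with 388 and 485 in CEChi, against 234 and 183 in MEChi (1.07 ± 0.19, adjusted p = 7.57e-04). Among 37 tested transcription factor genes 12 were higher and 16 were lower. Hey1, a Notch target, had 2599 and 2710 in CEChi, against 338 and 282 in MEChi (3.10 ± 0.24), and the pharyngeal factors Pax1, Isl1 and Eya1 changed by 2.68 ± 0.29, 2.16 ± 0.16 and 1.05 ± 0.14. Meis1, a homeobox factor, changed by 2.39 ± 0.19. In MEClo, Hey1 had 1839 and 1173, Meis1 955 and 1225, Pax1 1154 and 1107, and Isl1 492 and 485. Hey1, Meis1 and Pax1 were not called in CEC.Sca1+ over MEClo, and Isl1 was higher there (0.81 ± 0.16). Ehf and Elf3, epithelial Ets factors, were lower (-4.15 ± 0.17 and -2.39 ± 0.26), as were Irf4 (-3.45 ± 0.17) and Pou2f3, the regulator of tuft cells (-2.69 ± 0.20).

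The mark for possible thymocyte RNA covered 252 probe sets, of which 160 were tested. Of these 128 were called higher in CEChi, 6 lower and 26 were not called, and the mark uses the MEChi arrays that are also in the contrast. They made up 83 of the 1445 probe sets at least 2-fold higher (5.74%). Of the other 1362, 1207 (88.6%) had a thymocyte mean below the CEChi mean. Over all 15068 tested probe sets, 7749 had a thymocyte mean no higher than the CEChi mean. The 1362 were chosen as high in CEChi and without the marked ones, so the choice raises their share, which is not support. For each marked gene the CEChi excess over MEChi was expressed as a share of the thymocyte excess over MEChi. The median share was 8.19% over the 160 and the quartiles were 5.16% and 11.97%. Cd8a, a coreceptor chain of these thymocytes, had 1140.5 and 1193 in CEChi, against 116 and 118 in MEChi and a mean of 6472 in thymocytes, a share of 16.5%. Rag1, the recombinase of antigen receptor genes, had 339.7 and 619 in CEChi, against 46.0 and 56.8 in MEChi and 10002 in thymocytes, a share of 4.30%. Themis, a T cell signalling adaptor, stood at 11.0%.

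Prkcq and Ankrd44 had the highest shares of the marked genes called higher. Below them came Adamts6 (54.6%), Dock8 (43.4%), Arhgap25 (38.3%), Kansl1l (34.8%), Lpar6 (32.9%), Cux1 (30.3%) and Grap2 (29.5%), named after their values were seen. Prkcq, the kinase PKC-theta, had 1427 and 1377 in CEChi, against 66.3 and 80.9 in MEChi and a mean of 2062 in thymocytes, a share of 66.8% (4.26 ± 0.16, adjusted p = 1.34e-08). Ankrd44, an ankyrin repeat subunit of a phosphatase complex, had 864 and 768 in CEChi, against 87.1 and 66.8 in MEChi and 1154 in thymocytes, a share of 68.6% (3.42 ± 0.19). Prkcq had 748 and 858 in CEC.Sca1+, against 112 and 131 in MEClo, and Ankrd44 had 428 and 453 in CEC.Sca1+, against 255 and 292 in MEClo. Rag1 had 87.8 and 87.5 in CEC.Sca1+, against 42.6 and 37.3 in MEClo. The 8-fold threshold is a log2 difference of 3 between thymocytes and MEChi. Just inside it lay Kcna3 (3.001), E2f8 (3.005) and Cux1 (3.005), and just outside it Cd2 (2.997) and Apbb1ip (2.988).

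**Figure D4:**
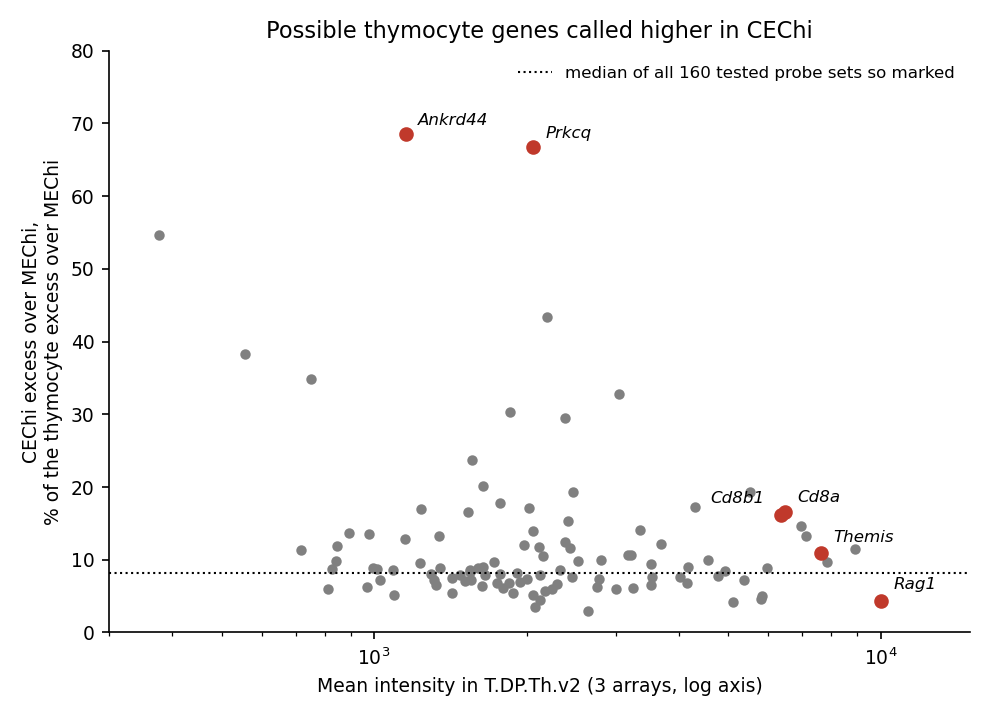
For each gene marked as possible thymocyte RNA and called higher in CEChi, the CEChi excess over MEChi as a percentage of the thymocyte excess over MEChi, against the mean intensity of 3 thymocyte arrays (log axis); the dotted line is the median of all 160 tested marked probe sets (8.19%). Shares run down from Ankrd44 (68.6%) and Prkcq (66.8%) through Adamts6 (54.6%), Dock8 (43.4%) and Arhgap25 (38.3%), with Cd8a (16.5%), Themis (11.0%) and Rag1 (4.30%) lower.

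The other sorted fractions gave a second contrast, CEC.Sca1+ over MEClo, of cells titled cortical and medullary. Its arrays are in neither group of the first contrast but share the fit and the estimate of spread. The sorted fractions differ between the contrasts, so the second is another comparison and not a replicate. It held 2920 called probe sets (19.4%), 1199 higher (7.96%) and 1721 lower (11.4%), and 1375 at least 2-fold different (9.13%), 426 higher (2.83%) against 949 lower (6.30%). At 2-fold, 238 probe sets were higher in both contrasts, 16.5% of the 1445 in CEChi over MEChi and 55.9% of the 426, and 606 were lower in both, 28.4% of the 2137 and 63.9% of the 949. A further 20 were higher in CEChi and lower in CEC.Sca1+, and 44 were lower in CEChi and higher in CEC.Sca1+. The contrasts themselves differed for 4457 probe sets (29.6%), 3001 of them by at least 2-fold (19.9%), of which 1256 (8.34%) were higher in the first contrast and 1745 (11.6%) lower.

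Enpep, Scn1a and Igfbp7 were higher in both fractions titled cortical. Enpep had 1008 and 1114 in CEC.Sca1+, against 89.5 and 77.5 in MEClo (3.67 ± 0.17), and the difference from the first contrast did not pass (adjusted p = 0.255). Igfbp7 had 6106 and 5591 in CEC.Sca1+, against 758 and 793 in MEClo (2.91 ± 0.14). Psmb11, in contrast, had 278 and 239 in CEC.Sca1+, against 276 and 414 in MEClo (-0.39 ± 0.22), and the difference between the contrasts was 5.37 ± 0.31 (adjusted p = 1.05e-06). Prss16 had 3702 and 1905 in CEC.Sca1+, against 3157 and 2313 in MEClo, with a difference between the contrasts of 3.76 ± 0.45 (adjusted p = 9.02e-05). Inmt had 103 and 54.2 in CEC.Sca1+, against 36.4 and 34.6 in MEClo, and Cd83 had 239.7 and 135 in CEC.Sca1+, against 94.1 and 85.1 in MEClo, so both were far below their CEChi values in either of these fractions. Lifr had 3941 and 4373 in CEC.Sca1+, against 4512 and 4509 in MEClo. Of the cortical identity list 8 members were higher and 4 lower in this second contrast, with a median of 0.10.

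On the medullary side Spib was lower in both contrasts, with 126 and 148 in CEC.Sca1+, against 3585 and 3245 in MEClo (-4.64 ± 0.17), and the difference between the contrasts was -0.16 ± 0.24 and did not pass (adjusted p = 0.665). Aire had 149 and 158 in CEC.Sca1+, against 215 and 345 in MEClo and did not pass there (-0.83 ± 0.34, adjusted p = 0.12), and the contrasts differed (adjusted p = 7.23e-05). Of the 39 tested peripheral tissue antigens 9 were lower and none was higher in CEC.Sca1+ than in MEClo. Tuft cell genes, which mark a chemosensory cell of the medulla, were lower in 19 of 23 in CEChi against MEChi and in 22 of 23 in CEC.Sca1+ against MEClo, with medians of -1.57 and -3.20. Trpm5, the tuft cell taste channel, had 64.5 and 78.3 in CEChi, against 567 and 418 in MEChi, and 64.2 and 54.0 in CEC.Sca1+, against 3072 and 2910 in MEClo.

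**Figure D5:**
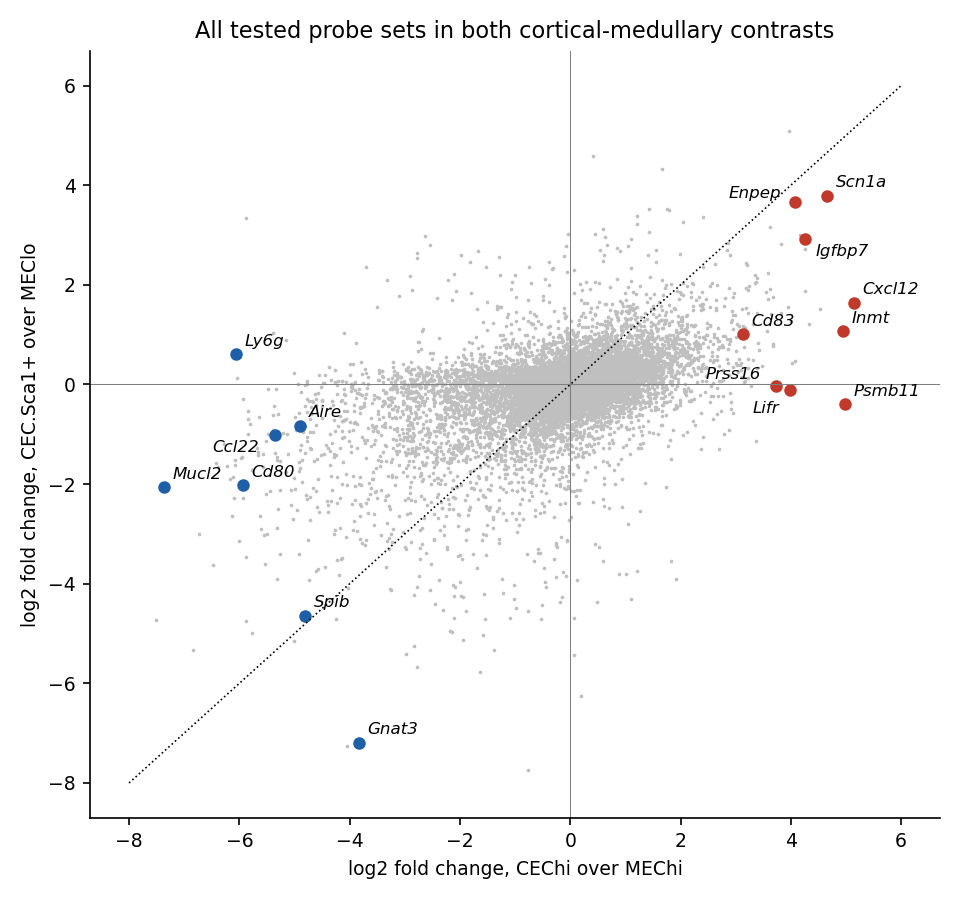
Log2 fold change of CEC.Sca1+ over MEClo (vertical) against that of CEChi over MEChi (horizontal) for all 15068 tested probe sets, with named genes in colour and a dotted line of equal change. Enpep and Spib lie near the line, while Psmb11, Prss16 and Lifr lie near 0 on the vertical axis.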

How the data were processed

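Total RNA of sorted cells was labelled with biotin for Affymetrix arrays, per the labels' protocols. The deposited values are intensities of 24922 probe sets on each array, made by the authors with Affymetrix Power Tools and RMA, per the submitters' processing notes. How many arrays were normalized jointly was not given in the sources used here. Values are linear, so log2 was taken. The supplied annotation gave 21425 probe sets 1 gene symbol, 1399 several and left 2098 unnamed here, and only single-symbol probe sets were named. A gene with several probe sets was represented by the one of highest mean log2 intensity.

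Groups were taken from titles. All 13 epithelial arrays of 7 groups titled Ep. (2 arrays a group but 1), from mice of 5 or 8 weeks, entered a single limma fit. The fit (lmFit and eBayes, two-sided, 6 residual degrees of freedom) lends its estimate of spread to each group of 2. Benjamini-Hochberg adjustment ran over the 15068 tested probe sets. The number of arrays limits the precision. Array medians over the series lay between 112 and 147. Deviations of same-numbered arrays correlated at -0.24 for CEChi with MEChi, 0.37 for CEC.Sca1+ with MEClo and 0.59 for CEChi with CEC.Sca1+. No label states a shared source and a group holds 2 numbers, so they were not taken as pairs. The fit was tested on simulated data with independent noise in each array, which leaves out any variation that same-numbered arrays share.

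The compared groups and the gene lists were chosen with earlier results of these data known. Named genes are the 12 largest rises and falls among single-symbol called probe sets with separate groups (predicted genes, receptor segments and small RNAs set aside), the 6 largest rises among possible thymocyte RNA, up to 4 called members per list and direction, the 2 identity lists and the sort markers. Other list members (Psmb5 and others given as not called, and further called members of lists) were named after their values were seen. Start regions come from the RefSeq table of build GRCm38.p6. Versions were R 4.3.3, limma 3.58.1 and 1.17.8 of data.table.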

Additional observations from a re-analysis of the deposited data

Results flagged for a closer look

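The 2 cortical-over-medullary contrasts, CEChi over MEChi and CEC.Sca1+ over MEClo, were compared by an interaction term in the limma fit, and 4457 probe sets passed at an adjusted p under 0.05. Of the 182 named genes 137 passed, and values follow for the largest rises and falls, for Psmb11 and Aire, and for Ptprc and Nid1, the named genes that moved at least 2-fold in opposite directions, as the first contrast minus the second on the log2 scale. The first contrast was the higher one for Psmb11 (5.37), Lifr (4.11), Inmt (3.87), Olfml1 (3.60), Gucy1a2 (3.60), Cxcl12 (3.50), Ptprc (3.46), Gpx8 (3.12), Diras2 (3.02), Themis (2.87), P4ha3 (2.73), Ankrd44 (2.73), Cd8a (2.11), Rag1 (2.03), Prkcq (1.54), Igfbp7 (1.35), Cd8b1 (1.24) and Scn1a (0.87). It was the lower one for Scgb1a1 (-2.86), Utf1 (-3.50), Hamp (-3.72), Lyz1 (-3.83), Nid1 (-3.84), Aire (-4.07), Klk1b16 (-4.27), Fabp9 (-4.56), Aoc1 (-4.73), Klk1b8 (-4.84), Serpinb12 (-5.08), Mucl2 (-5.31) and Ly6g (-6.67). Ptprc was higher in CEChi than MEChi and lower in CEC.Sca1+ than MEClo, and Nid1, a basement membrane linker, was lower in CEChi than MEChi and higher in CEC.Sca1+ than MEClo, each at least 2-fold and called in both. Ptprc had 84.7 and 67.4 in CEC.Sca1+, against 177 and 140 in MEClo. Nid1 had 67.6 and 64.6 in CEChi, and 144 and 233 in CEC.Sca1+, against 55.4 and 57.7 in MEClo. For both genes the low group of each contrast was in the dim range below 138.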

How the results depend on the processing

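Of 173 named genes called in CEChi over MEChi, 152 had a value in all 13 alternatives, and 136 of these kept direction and call in each. Over the alternatives that gave a value (at least 10 a gene), 19 genes lost the call at least once and none changed sign. Of the counts for CEChi over MEChi, a stricter filter (75th percentile, fewer probe sets tested) gave 4184 called, 2269 higher, 1915 lower and 2299 at least 2-fold. Leaving out probe sets brighter in thymocytes than in CEChi, chosen after seeing the data, left 7749 tested, of which 4302 were called, 1728 lower and 2306 at least 2-fold. Without 1 array of CEChi or MEChi between 5478 and 6202 were called. The threshold of the thymocyte mark moved its counts: at 4-fold 528 probe sets were tested and 314 higher, at 16-fold 54 and 53, and against MEClo in place of MEChi 245 were tested. For CEC.Sca1+ over MEClo, leaving out 1 array gave between 1795 and 3552 called and between 623 and 1313 higher, and the lowest of both were without MEClo replicate 2; without MEClo replicate 1, 789 were higher. For the difference between the contrasts, between 1331 and 3175 were higher, with 1331 without MEChi replicate 2 and 1398 without CEChi replicate 2. The cause was not tested. A replicate block on the 8-week arrays gave 7620 calls for CEChi over MEChi, 3331 for CEC.Sca1+ over MEClo and 4927 for their difference; a block with the MEChi numbers crossed, chosen after seeing the data, gave 8308. Of the named genes, the block added a call for H2-Eb1 (-0.36) and ended none. Quantile normalization gave 7817 calls, 56.8% of them higher, against 52.1% without it. The groups of 2 arrays, and the lone array that a leave-out keeps, taken to vary as other groups do, limit all of these. Signal below the median intensity limits what can be said of dim genes.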

Other observations

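Cell cycle genes were lower in CEChi in 14 of 26 tested cases and higher in none, with a median of -0.64. Cdk1, the mitotic kinase, had 219 and 218 in CEChi, against 872 and 1057 in MEChi (-2.13 ± 0.22, limma adjusted p = 9.47e-06), and Mki67, the proliferation antigen Ki-67, had 448 and 510 in CEChi, against 824 and 908 in MEChi (-0.86 ± 0.21). Each of the 29 genes on the array was brighter in thymocytes than in CEChi, with a thymocyte mean of 4899 for Mki67. In the other fractions Mki67 had 159.7 and 157 in CEC.Sca1+, against 115 and 156 in MEClo. The part of thymocyte RNA in these values was not tested.

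Basement membrane and matrix genes were higher in 10 of 20 and lower in 4. The laminin-332 chains Lamb3 and Lama3 had 933 and 1185 and 1302 and 1632 in CEChi, against 243 and 154 and 378 and 316 in MEChi (2.44 ± 0.28 and 2.08 ± 0.18). In MEClo, Lamb3 had 681 and 759 and Lama3 had 670 and 862, and neither was called in CEC.Sca1+ over MEClo. Itgb8, an integrin chain that activates TGF-beta, had 76.1 and 68.1 in CEChi, against 2493 and 2080.2 in MEChi (-4.98 ± 0.25). Fibroblast marker levels stand beside the largest rises.

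Interferon response genes were higher in 9 of 17 and lower in 3. Ifit3, an antiviral effector, had 1609 and 1460.4 in CEChi, against 293 and 239 in MEChi (2.53 ± 0.15, adjusted p = 1.45e-07), whereas Mx1, an antiviral GTPase, had 73.7 and 60.9 in CEChi, against 202 and 206 in MEChi (-1.60 ± 0.16). Among junction genes 3 of 16 were higher and 10 lower. The tight junction genes Cldn4, Cldn7 and Ocln changed by -3.45 ± 0.31, -3.59 ± 0.32 and -3.10 ± 0.22, and Cdh3, P-cadherin, by 1.90 ± 0.20. In MEClo, Ifit3 had 1577 and 1468, Mx1 had 180 and 163, and Cdh3 had 1112 and 1014.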
